A study of Mus musculus with 20 samples.

Results

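Messenger RNA was examined for 10 of the 54532 genes counted in mouse liver, chosen by symbol as a set of metabolic nuclear receptors with 1 of their coactivators. They were the fatty acid receptors *Pparg* and *Ppard*, their partner *Rxra*, the oxysterol receptor *Nr1h3* (LXRα), the hepatocyte receptors *Hnf4a* and *Nr5a2* (LRH-1), the estrogen-related receptor *Esrra*, the thyroid hormone receptor *Thrb*, the glucocorticoid receptor *Nr3c1* and the coactivator *Ppargc1a* (PGC1A). Livers came from 20 male C57BL/6 mice, 5 in each of 4 groups. All of the mice, including the controls, had been made obese by 12 weeks of high-fat diet (HFD) before surgery. They then had Roux-en-Y gastric bypass (RYGB), in which food passes from a small stomach pouch straight into the small bowel beyond its first part, or a sham operation. For the 8 weeks after surgery they were fed chow or HFD. Their liver transcriptomes are described by the study as fasted-state. By operation and later diet the groups are called Sham Chow and Sham HFD, RYGB Chow and RYGB HFD. The livers were a random selection within each group from a larger cohort, so each value stands for 1 mouse. The study describes the Sham HFD mice as heavier than the other groups, so in comparisons with Sham HFD the effects of weight and treatment on a gene cannot be told apart.

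Nuclear receptors are transcription factors that bind DNA directly and change the rate of transcription when a small lipid-soluble ligand settles in their pocket. PPARs, LXRs and thyroid hormone receptors bind as pairs with an RXR, most often on repeats of a short half-site, while HNF4A pairs with itself, NR5A2 binds alone and the glucocorticoid receptor pairs with itself on a different half-site. In liver these proteins set lipid storage, fatty acid oxidation, lipoprotein output, bile acid synthesis and glucose production, and PGC1A docks on several of them during fasting. Messenger RNA shows how much template for a receptor is present, and ligand, protein amount and binding to DNA were not measured here.

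Total counts ran from 14604854 to 22537498 per mouse, and all 10 genes passed the low-count filter with at least 93 counts in every mouse (the lowest was *Ppard*). Levels are given as CPM (counts scaled by library size) after TMM normalization, which scales each library by a factor (here 0.916 to 1.13) so that most genes stay level. All 8 hepatocyte markers were tested and their summed level was between 71518 and 126002 CPM in every mouse. Of 7 adipocyte markers *Adipoq*, *Lep* and *Retn* had at most 15, 16 and 11 counts in any mouse, while *Car3* and *Lipe*, which are not confined to adipocytes, were measured in every mouse and *Cfd* reached 24.4 CPM in 1 RYGB HFD mouse. In whole liver, fewer cells of a type and less RNA per cell cannot be told apart. RYGB HFD replicate 5 stood apart for several of the 10 genes, and calls of named genes that were lost without it are given below. Over all 12289 tested genes it was the highest of the 20 mice for 7.71% and the lowest for 5.65%, fewer than RYGB Chow replicates 3 (8.88% and 9.85%) and 5 (8.70% and 9.94%).

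Promoters are shown at annotated start sites of the 3 receptors whose mRNA differed between groups, *Pparg*, *Hnf4a* and *Rxra*. Which start supplied the gene counts was not measured. Of the 2 *Rxra* windows only 1 is shown. The sequences are RefSeq promoter windows of build GRCm38.p6, from 250 bases before to 50 bases after a transcription start. The search covered 9 of the 10 genes, which had 16 windows between them, and *Nr3c1* was left out of it. *Pparg* has 3 windows, each read from the plus strand, at chr6:115360894-115361193, chr6:115362099-115362398 and chr6:115421816-115422115. The third is the start of the transcript for the longer PPARG2 protein, and the gene counts add all transcripts together. Capitals mark matches on either strand to the nuclear receptor half-site AGGTCA or to the CCAAT box.
Pparg window 1: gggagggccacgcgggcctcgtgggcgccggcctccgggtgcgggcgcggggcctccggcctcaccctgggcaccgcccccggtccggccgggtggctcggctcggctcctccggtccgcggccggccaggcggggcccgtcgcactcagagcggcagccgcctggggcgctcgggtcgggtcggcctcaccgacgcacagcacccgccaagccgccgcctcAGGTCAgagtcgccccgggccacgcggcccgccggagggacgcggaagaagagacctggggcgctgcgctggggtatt
Pparg window 2: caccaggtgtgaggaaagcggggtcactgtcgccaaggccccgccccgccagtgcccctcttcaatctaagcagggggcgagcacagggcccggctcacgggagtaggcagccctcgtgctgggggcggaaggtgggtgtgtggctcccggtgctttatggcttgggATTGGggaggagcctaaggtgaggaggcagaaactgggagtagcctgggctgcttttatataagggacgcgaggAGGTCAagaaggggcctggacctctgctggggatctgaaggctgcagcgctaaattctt
Pparg window 3: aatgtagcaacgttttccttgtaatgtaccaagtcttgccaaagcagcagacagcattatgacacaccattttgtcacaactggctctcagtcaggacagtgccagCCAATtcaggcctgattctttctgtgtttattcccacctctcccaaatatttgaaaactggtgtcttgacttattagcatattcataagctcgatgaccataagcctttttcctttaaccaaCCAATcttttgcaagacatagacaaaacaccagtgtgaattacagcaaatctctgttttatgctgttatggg
AGGTCA occurred once in window 1, from position -28 to -23 relative to the start, and once in window 2, from -9 to -4, and CCAAT occurred on 1 strand or the other in windows 2 and 3. These letters are common, since 16.3% of 32851 RefSeq promoter windows of this length held AGGTCA and 37.4% held CCAAT. G and C made up 80.3% of window 1, 62.7% of window 2 and 40.3% of window 3, against a median of 52.7% over all windows.

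*Hnf4a* has 2 windows on the plus strand, at chr2:163506607-163506906 and chr2:163546905-163547204. The upstream window is the P2 promoter and the downstream window is P1, the promoter that adult hepatocytes are known to use. *Rxra* also has 2 windows on the plus strand. The window at chr2:27709042-27709341 is shown because it is the only 1 of the 16 windows with AGGTCA on both strands. Window 1 of *Rxra*, at chr2:27676951-27677250, is not shown. It was 83% G and C and had 0 matches to the motifs searched.
Hnf4a window 1: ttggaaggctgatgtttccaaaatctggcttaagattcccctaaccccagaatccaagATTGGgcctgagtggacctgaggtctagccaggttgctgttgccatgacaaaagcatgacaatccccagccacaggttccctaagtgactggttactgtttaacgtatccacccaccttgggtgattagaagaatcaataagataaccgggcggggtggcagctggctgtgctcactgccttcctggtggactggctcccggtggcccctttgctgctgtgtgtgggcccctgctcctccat
Hnf4a window 2: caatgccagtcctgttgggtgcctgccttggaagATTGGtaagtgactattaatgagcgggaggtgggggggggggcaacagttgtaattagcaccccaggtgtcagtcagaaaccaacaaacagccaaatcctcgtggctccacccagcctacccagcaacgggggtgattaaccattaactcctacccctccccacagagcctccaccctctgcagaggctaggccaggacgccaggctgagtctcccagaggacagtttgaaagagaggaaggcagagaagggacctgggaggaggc
Rxra window 2: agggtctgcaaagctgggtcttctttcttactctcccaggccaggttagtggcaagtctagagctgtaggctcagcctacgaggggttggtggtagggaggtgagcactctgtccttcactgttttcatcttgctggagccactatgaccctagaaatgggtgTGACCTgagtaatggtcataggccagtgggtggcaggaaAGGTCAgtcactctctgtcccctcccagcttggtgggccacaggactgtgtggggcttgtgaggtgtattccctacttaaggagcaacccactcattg
Both *Hnf4a* windows held 1 CCAAT match on the minus strand and no AGGTCA. In the *Rxra* window AGGTCA matched the minus strand from -87 to -82 and the plus strand from -48 to -43. The longer estrogen-related receptor element TCAAGGTCA, which contains the half-site, the HNF4 element CAAAGTCCA and the cAMP response element TGACGTCA had no match in any of the 16 windows, and 0.423%, 0.475% and 1.79% of all windows held them. A match describes letters in a window and is not evidence of binding.

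Set on a common scale of read counts per exon length and library size (RPKM, CPM for each kilobase of exon), the receptors spanned a wide range. *Hnf4a* was the most abundant at 147 ± 31.1 RPKM (mean ± SD, n = 20 mice) and *Rxra* came next at 106 ± 11.7, ranks 1 and 2 of the 49 nuclear receptor genes on this scale. *Nr1h3* followed at 40.9 ± 2.71, then *Nr3c1* at 12.8 ± 1.56, *Nr5a2* at 12.0 ± 1.21 and *Esrra* at 9.13 ± 1.30. *Pparg* (5.48 ± 1.42) and *Thrb* (5.37 ± 0.741) lay together, and *Pparg* was the higher of the pair in 9 of 20 mice. *Ppargc1a* (2.07 ± 0.604) and *Ppard* (0.986 ± 0.162) were lowest. *Hnf4a* exceeded *Rxra*, *Rxra* exceeded *Nr1h3* and *Nr1h3* exceeded *Nr3c1* in 20 of 20 mice, while *Nr3c1* exceeded *Nr5a2* in 15. Dividing by the longest transcript in place of all exons moved *Esrra* from rank 6 to rank 4 of the 10, so the order of *Nr3c1*, *Nr5a2* and *Esrra* depends on the length used.

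Within each receptor family 1 member supplied most of the mRNA per length. HNF4A's paralog *Hnf4g* had at most 8 counts in any mouse. *Rxra* made up 89.0% ± 1.60 of the summed RPKM of the 3 RXR genes (n = 20 mice), *Esrra* 91.8% ± 3.72 of the ERR genes and *Nr3c1* 80.1% ± 4.25 of *Nr3c1* and *Nr3c2* together. Among the PPARs the largest share belonged to *Ppara*, the receptor of fasting fat oxidation, at 88.5% ± 2.87, with *Pparg* at 9.72% ± 2.64 and *Ppard* at 1.80% ± 0.548. *Nr1h3* held 74.6% ± 2.31 of the LXR pair and *Thrb* 58.6% ± 4.35 of the thyroid hormone receptor pair. *Ppargc1a* was the lesser of its pair at 44.1% ± 5.98, with *Ppargc1b* holding the rest.

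**Figure D1:**
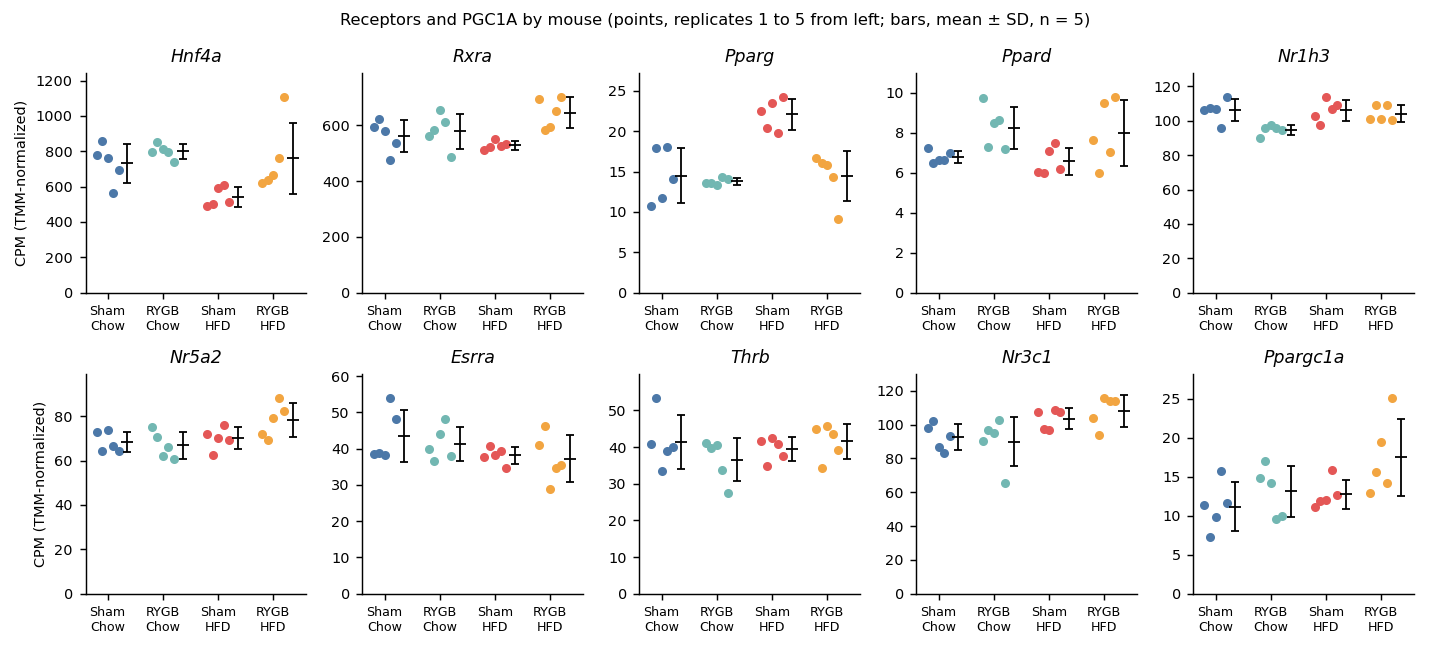
Level of each of the 10 genes in CPM (y axis from 0) in every mouse, by group, with the mean ± SD of 5 mice beside each group. The 5 Sham HFD mice are the 5 highest of 20 for *Pparg*, and RYGB HFD replicate 5 is the highest of 20 for *Hnf4a* at 1108 CPM.

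Each of the 4 pairwise comparisons and the surgery by diet interaction was tested with edgeR's quasi-likelihood test, with adjustment over all 12289 tested genes. In Sham HFD vs. RYGB HFD, which asks what bypass did on HFD, 3 of 10 genes passed (30%), beside 16.4% of all tested genes. *Hnf4a* and *Rxra* were higher and *Pparg* lower in RYGB HFD. In Sham Chow vs. Sham HFD, which asks what continued HFD did without bypass, 2 of 10 passed (20%), beside 21.6% of all tested genes. There *Pparg* was higher and *Hnf4a* lower in Sham HFD. Both comparisons use the same 5 Sham HFD mice, so opposite signs in them are not independent. Counts of list genes given below for these comparisons stand beside the same shares of all tested genes.

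In Sham Chow vs. RYGB Chow 0 of 10 genes passed, beside 0.057% of all tested genes, and 2 had an unadjusted p under 0.05 in edgeR (20%, beside 10.8% of all tested genes), with 0 adjusted calls and 1 unadjusted each by DESeq2 and limma-voom. In RYGB Chow vs. RYGB HFD 0 of 10 passed, beside 3.65%, with 3 unadjusted in edgeR (beside 18.8% of all tested genes), 4 in DESeq2 and 3 in limma-voom and 0 adjusted calls by those tools. The interaction, which asks whether the diet difference depends on surgery, called 0 of 10 beside 5.06%, with 1 unadjusted call (*Pparg*) by each of the 3 tools, where 20.8% of all tested genes had one in edgeR. Counted by mice that do not overlap, every mouse of one group lay beyond every mouse of the other for *Pparg*, *Hnf4a* and *Rxra* in Sham HFD vs. RYGB HFD (14.7% of tested genes), for *Pparg* in Sham Chow vs. Sham HFD (16.5%), for *Nr1h3* in RYGB Chow vs. RYGB HFD (5.05%) and for 0 of 10 in Sham Chow vs. RYGB Chow (1.33%).

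**Figure D2:**
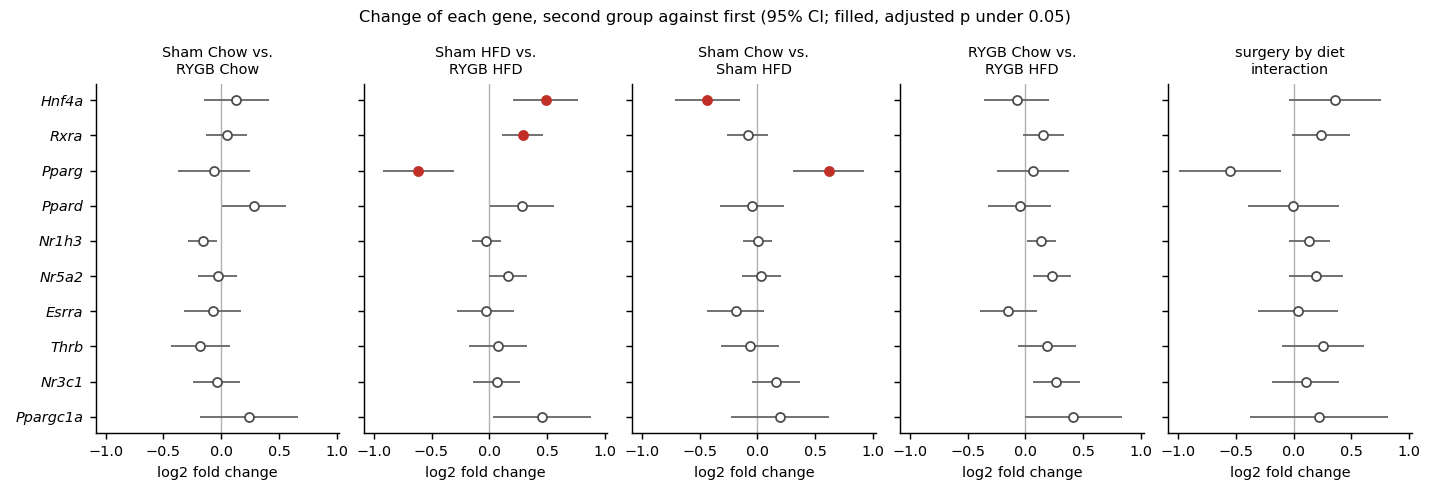
Log2 fold change of each gene, second group against first, with its 95% confidence interval, in the 4 comparisons and the interaction; filled points passed an adjusted p of 0.05. The 3 calls in Sham HFD vs. RYGB HFD and the 2 in Sham Chow vs. Sham HFD are the only filled points, and *Pparg* has the only interval in the interaction that lies wholly below 0.

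*Pparg* encodes the receptor that drives fat storage in adipocytes and is known to be induced in fatty liver. Its level in the 5 Sham HFD mice was 22.5, 20.4, 23.5, 19.7 and 24.3 CPM (replicates 1 to 5). In RYGB HFD mice it was 16.7, 16.0, 15.9, 14.3 and 9.08 CPM. Every Sham HFD mouse lay above every RYGB HFD mouse, and RYGB HFD replicate 5 was the lowest of all 20 mice. Sham Chow mice had 10.7, 17.9, 11.7, 18.01 and 14.0 CPM, a wide spread below the Sham HFD mice, and RYGB Chow mice lay close together, from 13.4 to 14.4 CPM. The group means were 22.1 ± 1.96 in Sham HFD against 14.4 ± 3.10 in RYGB HFD, 14.5 ± 3.39 in Sham Chow and 13.8 ± 0.429 in RYGB Chow (mean ± SD, n = 5 mice each).

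In Sham HFD vs. RYGB HFD *Pparg* fell, with a log2 fold change of -0.61 (standard error 0.148, edgeR adjusted p = 0.00657), or 1.53-fold. In Sham Chow vs. Sham HFD it rose by 0.62 on the log2 scale (standard error 0.148, edgeR adjusted p = 0.00571). Among sham mice with each mouse left out in turn the value was between 0.52 and 0.71, and between sham and bypass mice on HFD it was between -0.67 and -0.49, passing in all 20 refits of both. On chow the bypass difference was -0.07 (95% confidence interval -0.38 to 0.25, edgeR adjusted p = 0.920), which does not show that the groups were alike. The interaction was -0.55 (standard error 0.211) with an edgeR adjusted p of 0.136, and it did not pass.

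The PPARG target list holds lipid droplet and fatty acid uptake genes, and 9 of its 12 genes were tested. In Sham Chow vs. Sham HFD 5 of 9 rose and 1 fell, with a median log2 fold change of 1.45 beside -0.0047 over all tested genes. In Sham HFD vs. RYGB HFD 1 of 9 rose and 5 fell, with a median of -1.18 beside 0.0095, and without RYGB HFD replicate 5 the counts were 0 and 5. *Cd36*, a fatty acid transporter, was at 299 ± 25.2 CPM in Sham HFD, 104 ± 29.9 in RYGB HFD and 110 ± 40.3 in Sham Chow (mean ± SD, n = 5 mice each), and *Cidec*, a lipid droplet protein, at 71.0 ± 32.5, 11.2 ± 8.55 and 22.7 ± 23.4. Every Sham HFD mouse exceeded every other mouse for *Cd36*, while for *Cidec* Sham Chow replicate 2 (63.8 CPM) lay among the Sham HFD mice. *Mogat1*, which makes diacylglycerol, had 6.64 to 10.6 CPM in Sham HFD mice and passed the filter only through them, since the highest of the other mice had 1.86 CPM. Without it 4 of 8 genes of the list rose and 1 fell in Sham Chow vs. Sham HFD (median 1.27), and 1 rose and 4 fell in Sham HFD vs. RYGB HFD (median -0.91). The *Cidec* call in Sham Chow vs. Sham HFD was kept in 14 of 20 refits without 1 mouse, as was the *Acot1* call in Sham HFD vs. RYGB HFD. *Acot1*, an acyl-CoA thioesterase also under PPARA, went the other way, at 41.1 ± 6.80 CPM in Sham HFD against 129 ± 71.8 in Sham Chow and 84.1 ± 32.9 in RYGB HFD.

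Some markers of other liver cells also differed between the groups that *Pparg* separated, but not all of them did so in both comparisons. All 8 stellate cell and fibroblast markers rose in Sham Chow vs. Sham HFD and 4 of 8 fell in Sham HFD vs. RYGB HFD, with a summed level of 162 to 251 CPM in Sham Chow, 342 to 425 in Sham HFD and 229 to 382 in RYGB HFD mice. Of 10 macrophage markers 6 rose in Sham Chow vs. Sham HFD (5 of 9 without *Trem2*, which passed the filter mainly through 1 group) and 0 passed in Sham HFD vs. RYGB HFD by edgeR, and their sum was 138 to 378 CPM in Sham Chow, 333 to 465 in Sham HFD and 282 to 510 in RYGB HFD. Of the adipocyte markers *Adipoq*, *Lep* and *Retn* were at 0 counts in every Sham Chow and RYGB Chow mouse, while *Car3*, which liver also makes, held nearly all of the list's sum. The highest values of these 3, at 0.867, 0.954 and 0.636 CPM, were in Sham HFD, where the lowest values were 0. *Plin1* reached 2.25 CPM in Sham HFD, against at most 0.272 CPM in the other groups. *Cfd* was instead highest in RYGB HFD (24.4 CPM). The part of these cells in the *Pparg* result was not tested.

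*Ppard* encodes a PPAR found in most tissues that raises fatty acid oxidation. It was the scarcest of the 10 genes, at 6.80 ± 0.304 CPM in Sham Chow and 8.26 ± 1.05 in RYGB Chow, then 6.57 ± 0.684 in Sham HFD against 7.99 ± 1.64 in RYGB HFD (mean ± SD, n = 5 mice each). The bypass difference was 0.28 on the log2 scale on chow (95% confidence interval 0.0039 to 0.56, edgeR adjusted p = 0.455) and 0.28 on HFD (0.0012 to 0.56, edgeR adjusted p = 0.161). Neither passed, and the mice overlapped in both. On chow 4 of the 5 RYGB Chow mice lay above every Sham Chow mouse. Of 10 PPARD and shared PPAR targets 3 rose and 1 fell in Sham Chow vs. Sham HFD, and 2 fell in Sham HFD vs. RYGB HFD. Those 2 were *Vldlr*, a lipoprotein receptor (13.7 ± 4.03 CPM in Sham HFD, 4.00 ± 1.29 in RYGB HFD), and *Pdk4*, a brake on glucose oxidation (22.2 ± 6.97 and 6.02 ± 3.71).

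*Hnf4a* encodes the receptor that maintains hepatocyte identity and lipoprotein and clotting factor genes. Its level in Sham HFD mice was 489, 501, 592, 611 and 515 CPM (replicates 1 to 5). In RYGB HFD mice it was 621, 638, 667, 762 and 1108 CPM. Every RYGB HFD mouse exceeded every Sham HFD mouse, with a small gap between the lowest RYGB HFD mouse (621) and the highest Sham HFD mouse (611). Sham Chow mice had 778, 857, 764, 566 and 691 CPM, of which only replicate 4 lay within the Sham HFD range, and RYGB Chow mice had 739 to 855 CPM. Sham HFD, at 542 ± 55.7 CPM, was thus the lowest group against 731 ± 109 in Sham Chow, 800 ± 41.5 in RYGB Chow and 759 ± 203 in RYGB HFD (mean ± SD, n = 5 mice each).

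*Hnf4a* rose in Sham HFD vs. RYGB HFD by 0.49 on the log2 scale (standard error 0.135, edgeR adjusted p = 0.0166), or 1.40-fold. It fell in Sham Chow vs. Sham HFD, with a log2 fold change of -0.43 (standard error 0.135, edgeR adjusted p = 0.0267). Without RYGB HFD replicate 5 the first difference was 0.31 (edgeR adjusted p = 0.0533, the highest of a range from 0.0102 over the 20 mice left out in turn) and no longer passed, and with scaling by library size alone it was 0.39 (0.0594). The second did not pass without Sham Chow replicate 2 (-0.37, edgeR adjusted p = 0.0673) or 3 (-0.41, 0.0559) or without Sham HFD replicate 1 (-0.39, 0.0641), 2 (-0.40, 0.0615) or 5 (-0.41, 0.0586), nor with scaling by library size alone (-0.31, 0.118), and it passed in the other 15 refits. On chow the bypass difference was 0.13 (95% confidence interval -0.15 to 0.41, edgeR adjusted p = 0.783).

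All 18 genes of the HNF4A target list were tested. In Sham Chow vs. Sham HFD 2 rose and 5 fell (median -0.19), and in Sham HFD vs. RYGB HFD 6 rose and 4 fell (median 0.10), so the list went both ways in each. *Serpina1a*, an antitrypsin gene, was at 1331 ± 70.5 CPM in Sham HFD against 2072 ± 186 in Sham Chow and 2139 ± 180 in RYGB HFD, and *Apom*, an HDL protein, at 79.9 ± 14.8 against 171 ± 16.7 and 157 ± 31.8 (mean ± SD, n = 5 mice each). For both genes every Sham HFD mouse lay below every mouse of the other 2 groups. *Apoa4*, a lipoprotein gene known to rise in fatty liver, went the other way, at 871 ± 340 CPM in Sham HFD, 65.0 ± 14.0 in Sham Chow and 104 ± 36.5 in RYGB HFD. *Apoc3*, an inhibitor of triglyceride clearance, fell in Sham HFD vs. RYGB HFD with a log2 fold change of -0.64 (edgeR adjusted p = 0.00047).

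Hepatocyte markers also differed between the groups that *Hnf4a* separated. Of 8 markers 6 fell in Sham Chow vs. Sham HFD, and 6 rose and 1 fell in Sham HFD vs. RYGB HFD, and their summed level was 86195 to 106502 CPM in Sham Chow, 71518 to 84501 in Sham HFD and 101810 to 121386 in RYGB HFD. *Serpina1a* and *Ttr* stand in both this list and the HNF4A target list. The part of the hepatocyte content in the *Hnf4a* and *Rxra* results was not tested.

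*Rxra* encodes the partner that PPARs, LXRs and thyroid hormone receptors need to bind DNA. Its level in Sham HFD mice was 511, 521, 550.5, 527 and 533 CPM (replicates 1 to 5), the tightest spread of the 4 groups. In RYGB HFD mice it was 694, 583, 594, 651 and 703 CPM, all above the Sham HFD mice. Chow-fed mice overlapped both groups, from 476 to 622 CPM in Sham Chow and from 486 to 654 in RYGB Chow, and RYGB HFD replicates 1 and 5 lay above all of them. *Rxra* rose in Sham HFD vs. RYGB HFD by 0.29 on the log2 scale (standard error 0.0851, edgeR adjusted p = 0.0245), or 1.22-fold, from 528 ± 14.8 to 645 ± 55.5 CPM (mean ± SD, n = 5 mice each). The call was lost without Sham HFD replicate 1 (0.27, edgeR adjusted p = 0.0590) or 2 (0.28, 0.0506) and without RYGB HFD replicate 1 (0.26, 0.0585) or 5 (0.25, 0.0662), and was kept in the other 16 refits. It was also lost with scaling by library size alone (0.19, edgeR adjusted p = 0.234) and with no low-count filter (0.28, 0.0793).

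The paralog *Rxrb* can also serve as the RXR partner. It was at 34.8 ± 2.89 CPM in Sham HFD and 37.2 ± 5.07 in RYGB HFD, with a log2 fold change of 0.10 that did not pass (edgeR adjusted p = 0.496). It fell in Sham Chow vs. Sham HFD, with a log2 fold change of -0.29 (edgeR adjusted p = 0.0216), where *Rxra* had -0.09 (edgeR adjusted p = 0.499). The *Rxrb* call was lost with scaling by library size alone (-0.17, edgeR adjusted p = 0.274) and without Sham HFD replicate 1 (-0.26, 0.0605) or 2 (-0.27, 0.0540). Whether the 2 genes differ in these contrasts was not tested. Of the PPAR partners of RXRA, *Ppara* was at 161 ± 46.0 CPM in Sham Chow, 234 ± 29.3 in Sham HFD, with 227 ± 41.3 in RYGB HFD, with differences that did not pass (edgeR adjusted p = 0.0643 and 0.904).

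*Nr1h3* encodes LXRα, which senses oxysterols and raises sterol export and lipogenesis. It was the steadiest of the 10 genes, from 90.0 to 114 CPM over all 20 mice. RYGB Chow had the lowest level at 94.8 ± 2.84 CPM, against 106 ± 6.45 in Sham Chow, 106 ± 6.26 in Sham HFD, with 104 ± 4.72 in RYGB HFD (mean ± SD, n = 5 mice each). Every RYGB HFD mouse (100.4 to 109 CPM) lay above every RYGB Chow mouse (90.0 to 97.6), the smallest p that 5 against 5 allows (exact permutation test, two-sided p = 0.00794). In the test across all genes the difference of 0.14 on the log2 scale (standard error 0.0600) did not pass (edgeR adjusted p = 0.221), nor did the bypass difference on chow, at -0.16 (standard error 0.0600, edgeR adjusted p = 0.315). The 12 LXR targets split in direction. *Srebf1*, the regulator of lipogenesis, rose with HFD in sham mice (0.93 on the log2 scale, edgeR adjusted p = 0.00321) and in bypass mice (0.80, edgeR adjusted p = 0.0342, passing in 13 of 20 refits without 1 mouse). *Scd1*, a desaturase, fell from 12359.8 ± 2905 CPM in Sham HFD to 3318 ± 1910.5 in RYGB HFD, while *Abcg8*, a subunit of the sterol exporter, rose from 125 ± 14.0 to 171 ± 19.4.

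*Nr5a2* encodes LRH-1, a regulator of bile acid and HDL genes in hepatocytes. It was highest in RYGB HFD at 78.3 ± 7.74 CPM, with 71.8, 69.4, 79.4, 88.3 and 82.4 in the 5 mice, against 66.8 ± 6.04 in RYGB Chow, 68.3 ± 4.69 in Sham Chow and 70.0 ± 4.93 in Sham HFD. The mice overlapped in every comparison. The diet difference in bypass mice was 0.23 on the log2 scale (95% confidence interval 0.063 to 0.39) and had the smallest unadjusted p of the 10 genes there, but it did not pass (edgeR adjusted p = 0.118). Of 11 NR5A2 targets 3 rose and 2 fell in Sham HFD vs. RYGB HFD, and 1 rose in RYGB Chow vs. RYGB HFD. The gene that rose in the latter was *Scarb1*, the HDL receptor, at 302 ± 44.8 CPM in RYGB HFD, 197 ± 16.2 in RYGB Chow and 197 ± 9.23 in Sham HFD. *Cyp8b1*, which makes cholic acid, fell in Sham HFD vs. RYGB HFD (610 ± 79.3 to 356 ± 105 CPM). *Nr0b2*, the repressor SHP that binds NR5A2 and HNF4A, was at 29.9 ± 8.05 in Sham HFD and 46.2 ± 8.80 CPM in RYGB HFD and did not pass (0.63 on the log2 scale, edgeR adjusted p = 0.0589).

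*Ppargc1a* encodes PGC1A, which is induced by fasting and switches on glucose production and mitochondrial genes. Its level in RYGB HFD mice was 13.0, 15.6, 19.5, 14.2 and 25.1 CPM, and replicate 5 was the highest of the 20 mice. Sham HFD mice had 11.2, 11.9, 12.0, 15.9 and 12.7 CPM, Sham Chow mice 7.23 to 15.7 and RYGB Chow mice 9.55 to 17.0, so the groups overlapped. The difference in Sham HFD vs. RYGB HFD was 0.45 on the log2 scale (95% confidence interval 0.035 to 0.88, edgeR adjusted p = 0.129) and in RYGB Chow vs. RYGB HFD 0.41 (-0.0079 to 0.83, edgeR adjusted p = 0.278). Neither passed, and without RYGB HFD replicate 5 they were 0.29 and 0.25 (edgeR adjusted p = 0.357 and 0.547). *Ppargc1b* was at 8.81 ± 2.102 CPM in Sham HFD against 11.3 ± 2.08 in RYGB HFD (mean ± SD, n = 5 mice each).

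Of 7 gluconeogenic PGC1A targets 2 rose and 2 fell in Sham Chow vs. Sham HFD, 1 rose and 2 fell in Sham HFD vs. RYGB HFD, and 1 rose and 1 fell in RYGB Chow vs. RYGB HFD. *Fbp1*, a gluconeogenic phosphatase, was highest in Sham HFD at 1305 ± 73.0 CPM and fell to 873 ± 43.6 in RYGB HFD, while *Pck1*, the entry enzyme of the pathway, fell from 2042 ± 581 in Sham Chow to 947 ± 211 in Sham HFD. *G6pc*, the last enzyme of the pathway, fell in RYGB Chow vs. RYGB HFD (298 ± 112 to 144 ± 31.7 CPM), a call lost with 2 groups only (edgeR adjusted p = 0.0598) and without RYGB Chow replicate 1 or 4 or RYGB HFD replicate 2 or 3 (0.0629, 0.0579, 0.0546 and 0.0693 for *G6pc*). *Pcx*, pyruvate carboxylase, moved like *Fbp1*, with log2 fold changes of 0.60 in Sham Chow vs. Sham HFD (edgeR) and -0.33 in Sham HFD vs. RYGB HFD, and it also rose in RYGB Chow vs. RYGB HFD (0.26, kept in 7 of 20 refits without 1 mouse). The other called genes of the list were *Alas1*, the first enzyme of heme synthesis, which fell in Sham Chow vs. Sham HFD (-1.11, kept in 13 of 20 refits), and *Foxo1*, a transcription factor restrained by insulin, which rose in Sham HFD vs. RYGB HFD (0.42, kept in 16).

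*Esrra* encodes a receptor with no known natural ligand that works with PGC1A on mitochondrial genes. It was at 43.6 ± 7.22 CPM in Sham Chow and 41.3 ± 4.69 in RYGB Chow, then 38.1 ± 2.34 in Sham HFD against 37.2 ± 6.56 in RYGB HFD (mean ± SD, n = 5 mice each). All 4 differences were negative on the log2 scale, from -0.19 to -0.03, and the mice overlapped. The largest, -0.19 in Sham Chow vs. Sham HFD, had a 95% confidence interval from -0.43 to 0.055 (edgeR adjusted p = 0.256). Of 16 ESRRA and PGC1A mitochondrial genes 1 rose and 2 fell in Sham Chow vs. Sham HFD, and 1 rose and 1 fell in Sham HFD vs. RYGB HFD. *Nrf1*, a regulator of respiratory chain genes, was lowest in Sham HFD (9.24 ± 0.638 CPM) and *Mfn2*, a mitochondrial fusion protein, highest there (164 ± 5.78 CPM), and these 2 were the calls of the list in both comparisons, beside *Cox4i1*, which fell in Sham Chow vs. Sham HFD (-0.32 on the log2 scale). In Sham HFD vs. RYGB HFD the *Nrf1* and *Mfn2* calls were each kept in 15 of 20 refits without 1 mouse, and *Nrf1* was not called with scaling by library size alone, no filter or 2 groups only (edgeR adjusted p = 0.138, 0.119 and 0.0563) and *Mfn2* not with no filter (0.0747). The *Cox4i1* call was kept in 16 of 20 refits and lost with library size alone (-0.19, edgeR adjusted p = 0.138). The paralog *Esrrg* rose with HFD in sham mice (0.87 on the log2 scale, edgeR adjusted p = 0.0455) and in bypass mice (1.17, edgeR adjusted p = 0.0442), from a low level of 3.45 ± 1.78 and 1.81 ± 0.694 CPM on chow, and each call was kept in 9 of 20 refits without 1 mouse.

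*Thrb* encodes the main thyroid hormone receptor of hepatocytes. It was at 41.4 ± 7.33 CPM in Sham Chow and 36.5 ± 5.91 in RYGB Chow, then 39.5 ± 3.22 in Sham HFD against 41.6 ± 4.83 in RYGB HFD, with single mice from 27.4 to 53.5 (mean ± SD, n = 5 mice each). No difference passed, and the 95% confidence interval was -0.18 to 0.32 on the log2 scale in Sham HFD vs. RYGB HFD and -0.32 to 0.19 in Sham Chow vs. Sham HFD. *Thra* did not pass either, at 17.8 ± 1.26 CPM in Sham HFD against 18.02 ± 1.82 in RYGB HFD. Of 8 thyroid hormone receptor targets 3 rose in Sham Chow vs. Sham HFD (median 0.41) and 4 fell in Sham HFD vs. RYGB HFD (median -0.44). *Dio1*, the deiodinase that activates the hormone, was at 247 ± 15.7 CPM in Sham HFD, above every mouse of the other groups, against 98.2 ± 32.2 in Sham Chow and 109 ± 27.2 in RYGB HFD. *Me1*, malic enzyme, was at 358 ± 76.2 in Sham HFD and 86.6 ± 16.7 CPM in RYGB HFD. The corepressor *Hr* was called in both but reached the filter only in 4 Sham HFD mice (1.79 to 3.33 CPM in the group), and without it 2 of 7 genes of the list rose in the former (median 0.28) and 3 fell in the latter (median -0.44).

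*Nr3c1* encodes the glucocorticoid receptor. It was at 92.6 ± 7.80 CPM in Sham Chow and 90.0 ± 14.5 in RYGB Chow, then 104 ± 6.05 in Sham HFD against 108 ± 9.43 in RYGB HFD (mean ± SD, n = 5 mice each). RYGB Chow replicate 5 was the lowest mouse at 65.3 CPM, and the other 4 mice of its group had 90.2 to 103. It was also the lowest mouse of all for *Thrb* and *Nr5a2*. The diet difference was 0.16 on the log2 scale in sham mice (95% confidence interval -0.043 to 0.37, edgeR adjusted p = 0.246) and 0.27 in bypass mice (0.062 to 0.47, edgeR adjusted p = 0.140), and neither passed. Without RYGB Chow replicate 5 the difference in bypass mice was 0.17, and that of *Thrb* went from 0.19 to 0.096. Of 15 glucocorticoid receptor targets tested 1 rose in Sham Chow vs. Sham HFD, *Lcn2* (1.91 ± 0.627 to 20.6 ± 8.24 CPM), which inflammation is also known to raise. In Sham HFD vs. RYGB HFD 1 rose, *Zbtb16*, and 1 fell, *Dusp1* (-0.65 on the log2 scale, edgeR adjusted p = 0.0470), a call kept in 8 of 20 refits without 1 mouse.

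The *Zbtb16* call rested on RYGB HFD replicate 5, at 80.5 CPM against 2.88 to 8.08 in the other 4 mice. Without this mouse the log2 fold change fell from 2.65 to 0.78, with edgeR adjusted p = 0.365, and the call was also lost without Sham HFD replicate 2, 4 or 5 (edgeR adjusted p = 0.0549, 0.0531 and 0.0593 for *Zbtb16*) and with limma-voom (1.44, adjusted p = 0.262). The same mouse had 102 CPM of *Fkbp5*, a feedback inhibitor of the receptor, against 27.0 to 36.1 in the rest of its group, and 626 CPM of *Lpin1*, a coactivator of PGC1A and PPARA, against 54.9 to 153. Its *Nr3c1*, at 114 CPM, lay within its group. Among the 10 genes it was the highest of 20 mice for *Ppard*, *Rxra*, *Hnf4a* and *Ppargc1a* and the lowest for *Pparg*. Without it the glucocorticoid receptor targets had 0 calls higher and 3 lower by edgeR, the HNF4A targets 5 and 4, the NR5A2 targets 3 and 1 and the coactivators 3 and 1. Without it 1 of 10 members of the set, *Pparg*, passed in Sham HFD vs. RYGB HFD (-0.49 on the log2 scale, edgeR adjusted p = 0.0142), beside 13.6% of all tested genes in that refit. Calls of named list genes in Sham HFD vs. RYGB HFD were also lost without it. They were *Foxo1* (0.31, edgeR adjusted p = 0.0879), *Acot1* (0.86, 0.0867), *Mfn2* (-0.25, 0.0565), *Esr1* (-0.72, 0.0535) and *Nr1d1* (0.44, 0.0532). In RYGB Chow vs. RYGB HFD the calls of *Pcx* (0.24, edgeR adjusted p = 0.0827) and *Scd1* (-1.29, 0.0574) were lost. This mouse was singled out after its values were seen, and why it stood apart was not tested.

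**Figure D3:**
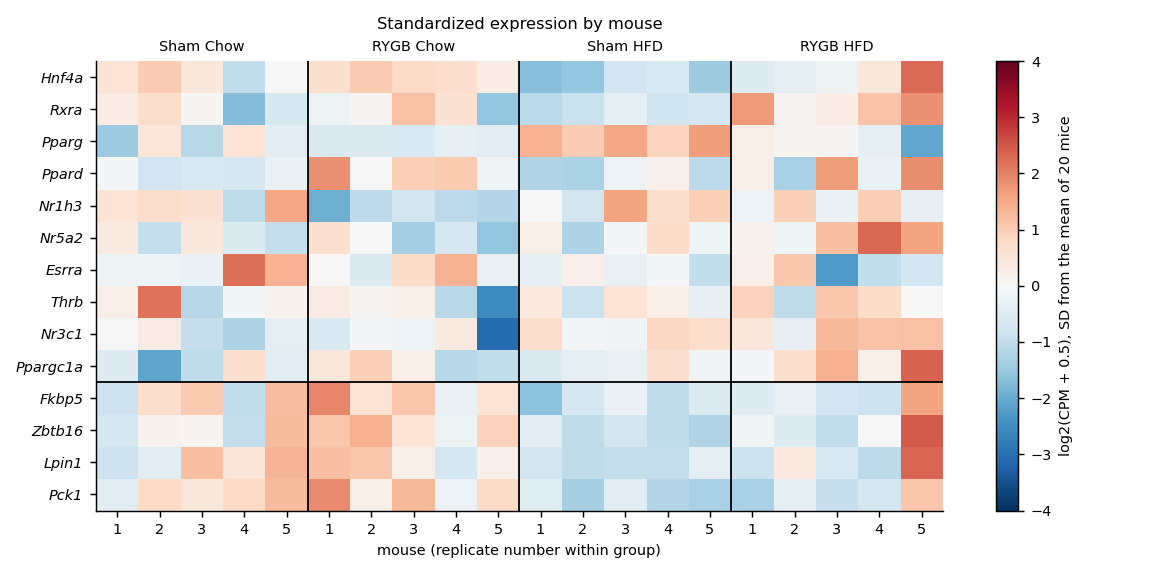
Log2(CPM + 0.5) of the 10 genes and of *Fkbp5*, *Zbtb16*, *Lpin1* and *Pck1* in each mouse (columns, by group and replicate), as standard deviations from the mean of 20 mice. RYGB HFD replicate 5 is the highest of the 20 mice for *Hnf4a*, *Ppargc1a*, *Zbtb16* and *Lpin1* and the lowest for *Pparg*, and the 5 Sham HFD mice are above the mean for *Pparg* and below it for *Hnf4a* and *Rxra*.

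Coregulators are the proteins that receptors recruit. Of 16 coactivators 3 fell in Sham Chow vs. Sham HFD, beside 21.6% of all tested genes called there in either direction. In Sham HFD vs. RYGB HFD 2 rose and 1 fell, beside 16.4%, so both counts lie near those shares. The coactivators that fell with HFD in sham mice were *Pprc1*, which is PGC1-related (-0.60 on the log2 scale), the methyltransferase *Prmt1* (-0.31) and the acetyltransferase *Kat2b* (-0.24). *Kat2b* rose in Sham HFD vs. RYGB HFD (0.26). With scaling by library size alone none of these 3 was called in Sham Chow vs. Sham HFD (edgeR adjusted p = 0.0660, 0.268 and 0.377), nor *Kat2b* (0.16, 0.230) or *Crebbp* (0.28, 0.0877) in Sham HFD vs. RYGB HFD, and *Prmt1* was kept in 12 of 20 refits without 1 mouse. *Crebbp*, a histone acetyltransferase, rose from 22.6 ± 1.89 to 29.4 ± 2.14 CPM in the latter and *Ncoa4*, which also carries ferritin to the lysosome, fell from 99.4 ± 5.35 to 74.6 ± 10.3 (mean ± SD, n = 5 mice each). Of 27 other nuclear receptor genes tested 4 rose and 2 fell in Sham Chow vs. Sham HFD, beside the same 21.6%. In Sham HFD vs. RYGB HFD 1 rose and 2 fell, beside the same 16.4%. *Esr1*, an estrogen receptor, and *Nr4a1*, an early response receptor, were called in both comparisons, at 0.77 and 1.43 on the log2 scale in the former and -0.80 and -1.29 in the latter. Each *Esr1* call was kept in 18 of 20 refits without 1 mouse. *Rarb* (1.34) and *Esrrg* also rose and *Nr2c1* (-0.48) and *Rxrb* fell in the former, and *Nr1d1*, a clock repressor, rose in the latter (0.42, kept in 13 of 20 refits). *Rarb* and *Nr4a1* passed the filter almost only through Sham HFD mice (group means of 2.33 and 3.21 CPM there), and without these 2 genes 2 rose and 2 fell in the former and 1 rose and 1 fell in the latter.

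**Figure D4:**
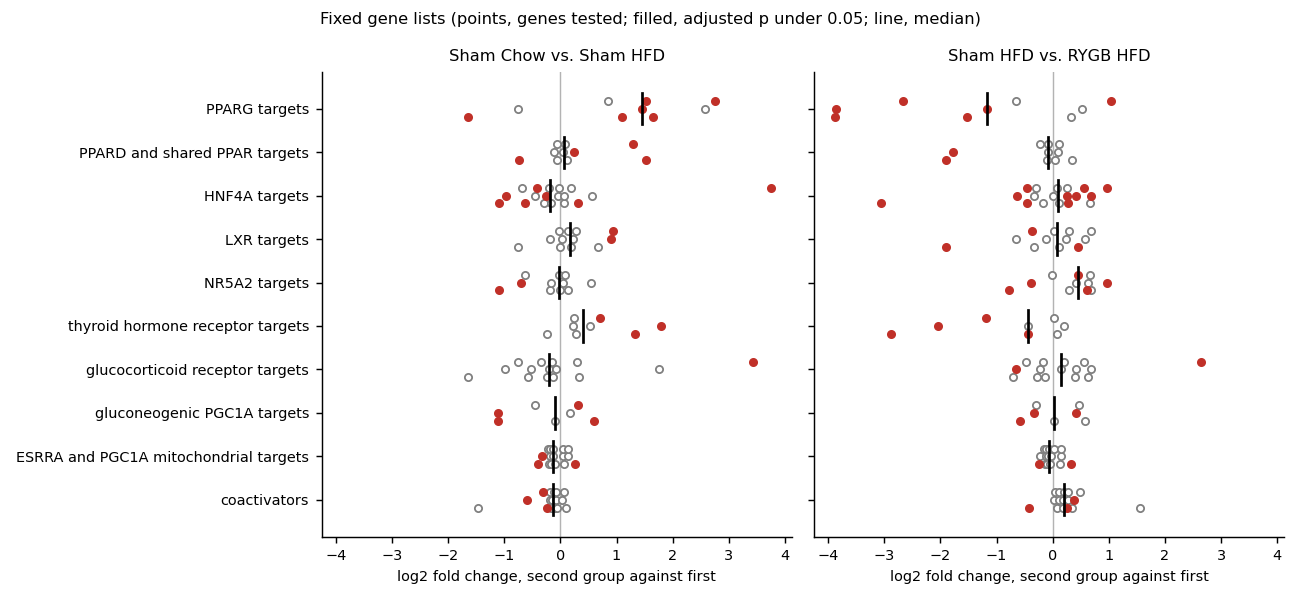
Log2 fold change of every tested gene of the target and coactivator lists in Sham Chow vs. Sham HFD and Sham HFD vs. RYGB HFD, which share the Sham HFD mice; filled points passed an adjusted p of 0.05 and the line is the list's median. The PPARG targets have the largest medians, 1.45 and -1.18, and the HNF4A targets have filled points on both sides of 0. Without *Mogat1*, which passed the filter only through Sham HFD mice, the PPARG target medians are 1.27 and -0.91.

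For each of the 3 genes that changed, the tested genes most like it were found from the root mean square difference of standardized log2(CPM + 0.5) over the 20 mice, where a smaller value is more alike. Nearest to *Pparg* were *Osbpl3* (0.422 standard deviations, at 46.0 CPM in Sham HFD and 10.8 to 15.1 in the other group means) and *Nfe2l2* (0.459), beside a median of 1.42 over all tested genes. Nearest to *Hnf4a* were *Wdtc1* (0.449) and *Tab2* (0.450), and nearest to *Rxra* were *Gabpb2* (0.485) and *Zfhx3* (0.533). By the mean absolute difference the nearest genes to *Pparg* were the same. Those of *Hnf4a* became *Tab2* and *Tmem248*, and those of *Rxra* became *Smurf2* and *Zfhx3*. The mice share their groups and libraries, so these values describe a pattern only.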

How the data were processed

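Liver RNA from 20 mice was sequenced as stranded, poly-A selected, paired-end libraries. According to the submitters' processing notes, the authors used Trimmomatic 0.36, FastQC, HISAT2 2.1.0 and featureCounts 1.5.0-p3 of Subread with genome build mm10. The annotation release and the strand setting of the counting are not given in the sources used here. The authors deposited 1 table of raw read counts per gene, not normalized, with total counts of 14604854 to 22537498 per mouse. Counts add all transcripts of a gene, and gene symbols, lengths and coordinates were taken from GENCODE M21 (GRCm38).

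The low-count filter kept 12289 genes (3 or more mice with a CPM of 2 or more), which were analysed in R 4.3.3 with edgeR 4.0.16: TMM factors, 1 model of the 4 groups, the quasi-likelihood test and Benjamini-Hochberg adjustment over all tested genes, called at an adjusted p under 0.05. DESeq2 1.42.0, limma 3.58.1 (voom), RLE or library size scaling, no filter, a CPM minimum of 5, a replicate block, a fit of 2 groups only and leaving out each mouse were alternatives. Single values used exact two-sided permutation tests (Python 3.11.15, numpy 2.4.6, scipy 1.17.1, pandas 2.3.3), which for 5 against 5 mice cannot go below p = 0.00794. Figures were drawn with matplotlib 3.10.9. The scripts were tested on simulated data.

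The members and gene lists were chosen with earlier results of these data known, and the target lists are textbook lists. Named genes were all members, the up to 4 genes of a list with the smallest p in a contrast, partners and paralogs of members, and the 2 genes most like a called member. Single cell type markers were named after their values were seen. Replicates were separate mice. No sequencing batch is named in the labels. PCR reads without molecular identifiers are not independent molecules, so the depth covers counting error only. Some genes of the lists are counted but not reported here by name.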

Additional observations from a re-analysis of the deposited data

Results flagged for a closer look

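Some mice lay far from the other 4 of their group by Dixon's test at 95%, which chance flags in about 1 in 20 groups. In all 264 groups were tested over the named genes, each group being 1 gene in the mice of 1 treatment. Of these, 40 were of members, and 1 of the 40 was flagged. *Hnf4a* in RYGB HFD replicate 5 was 1108 CPM, against 621 to 762 in the rest of the group. The same mouse was flagged for *Pck1* (2558 CPM against 783 to 1242), *Zbtb16* (80.5 against 2.88 to 8.08), *Fkbp5* (102 against 27.0 to 36.1), *Lpin1* (626 against 54.9 to 153), *Ncoa4* (92.2 against 66.7 to 74.0), *Foxo1* (59.6 against 41.3 to 45.4) and *Esrrg* (2.45 against 4.31 to 4.66).

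Sham Chow replicate 2 was flagged for *Cidec* (63.8 CPM against 6.21 to 17.6), *Pdk4* (21.6 against 3.78 to 4.66) and *G6pc* (389.5 against 170.1 to 222). Sham Chow replicate 3 was low for *Dio1* (42.5 against 104 to 125) and *Rxrb* (38.2 against 43.1 to 44.7), and Sham Chow replicate 5 was high for *Zbtb16* (26.7 against 2.99 to 9.03). Sham Chow replicate 1 was high for *Esr1* (18.6 against 8.12 to 10.7) and *Nr2c1* (24.6 against 19.7 to 20.99) and low for *Pcx* (492 against 563 to 586). In RYGB Chow, replicate 3 was flagged for *Apoa4* (224 against 28.4 to 74.9), replicate 5 for *Lcn2* (12.6 against 3.04 to 4.00) and replicate 2 for *Thra* (22.1 against 14.9 to 16.8). In Sham HFD, replicate 1 was high for *Alas1* (552 against 162 to 259.8) and low for *Cox4i1* (273 against 342 to 346) and *Nr1d1* (88.9 against 112 to 118), replicate 3 was low for *Mfn2* (153.5 against 165 to 167) and replicate 2 for *Nfe2l2* (76.2 against 82.8 to 85.1). In RYGB HFD, replicate 3 was high for *Cidec* (25.9 against 4.19 to 10.1) and replicate 2 low for *Nr2c1* (15.4 against 19.1 to 20.2).

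Of the 50 genes named from the lists, 11 passed edgeR's interaction test, beside 5.06% of all tested genes. Many of the 50 were picked for a small p in pairwise comparisons of these same mice, so a high count was built in. *Nr4a1* passed the filter almost only through Sham HFD mice. How these 11 results change without 1 mouse was not examined. The interaction was negative on the log2 scale for *Apoa4* (-3.46, adjusted p = 0.00201), *Pdk4* (-2.23, 0.0458), *Vldlr* (-1.91, 0.00704), *Me1* (-1.88, 0.000772), *Nr4a1* (-1.72, 0.0250), *Cd36* (-1.70, 0.00549), *Dio1* (-1.15, 0.0496) and *Fbp1* (-0.45, 0.00963). It was positive for *Apom* (0.87, adjusted p = 0.0115), *Serpina1a* (0.79, 0.00201) and *Scarb1* (0.53, 0.0187), with the edgeR test throughout.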

How the results depend on the processing

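*Pparg* passed in both of its comparisons under all 8 alternatives and all 20 refits without 1 mouse. Scaling by library size alone moved the median of all genes (log2 scale) to 0.12 in Sham Chow vs. Sham HFD and to -0.13 in the interaction, and left 1 of the 10 genes called between sham and bypass mice on HFD and 1 in Sham Chow vs. Sham HFD. Without 1 mouse the counts were 1 to 3 and 1 to 2. Genes of the lists called in Sham Chow vs. RYGB Chow numbered 0, or 1 with DESeq2, 1 with library size alone and 0 to 1 without 1 mouse. In RYGB Chow vs. RYGB HFD they numbered 8, or 16 with DESeq2, 2 with 2 groups only and 2 to 12 without 1 mouse. All genes called in these comparisons were 7 and 448, against 92 and 751 with DESeq2, 3 with limma-voom and 13 with no filter for the former and 184 with 2 groups only for the latter. The replicate block changed no member's call (2 in the sham diet comparison, 3 in the surgery comparison on HFD). The replicate numbers were not taken to pair the mice: deviations of same-numbered mice had correlations of -0.257 to 0.160 over 30 pairs, and 3 of 20 mice correlated best with their own number. With the block the calls of *Zbtb16* (1.77, edgeR adjusted p = 0.0856), *Dusp1*, *Acot1* and *Nr1d1* in Sham HFD vs. RYGB HFD, *Alas1* and *Prmt1* in Sham Chow vs. Sham HFD, and *Srebf1* and *Pcx* in RYGB Chow vs. RYGB HFD were lost. Leaving out the list genes that passed the filter only through 1 group was chosen after seeing the data.

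Only values that did not pass changed sign. With library size alone these were, on the log2 scale, *Ppard* 0.0782, *Rxra* 0.0402 and *Thrb* 0.0589 in Sham Chow vs. Sham HFD, *Nr5a2* 0.013 and *Nr3c1* 0.014 in Sham Chow vs. RYGB Chow, *Thrb* -0.022 and *Nr3c1* -0.031 in Sham HFD vs. RYGB HFD, and *Nr1h3* -0.0086, *Esrra* -0.11 and *Nr3c1* -0.045 in the interaction. With no filter *Nr1h3* was -0.0084 in Sham Chow vs. Sham HFD. Without 1 mouse, Sham Chow vs. RYGB Chow ranged from -0.16 to 0.024 for *Pparg*, -0.0071 to 0.11 for *Rxra*, -0.078 to 0.0020 for *Nr5a2*, -0.14 to 0.013 for *Esrra* and -0.092 to 0.056 for *Nr3c1*. Sham HFD vs. RYGB HFD ranged from -0.056 to 2.8e-05 for *Nr1h3* and -0.13 to 0.045 for *Esrra*, and Sham Chow vs. Sham HFD from -0.033 to 0.030 for *Nr1h3* and -0.13 to 0.044 for *Thrb*. *Ppard* ranged from -0.13 to 0.033 in RYGB Chow vs. RYGB HFD, and the interaction from -0.086 to 0.079 for *Ppard* and -0.056 to 0.12 for *Esrra*. The cause of these changes was not tested. *Ppard* had as few as 93 counts, so its values carry the most counting error of the 10 genes.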
